A study of Homo sapiens with 9 samples.

Results

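The genes of human chromosome 9 that were expressed in HEK293 cells were followed across 9 libraries: 366 members, out of 1042 chromosome 9 genes and 26485 genes in all. A member had all of its exons on chromosome 9 and a mean of at least 15 CPM (counts scaled to a common library total) over the 3 UBE3D knockout libraries. Of the 372 genes that reached this floor, 6 were set aside by name, namely RPS6, RPL35, RPL12, RPL7A, PSAT1 and HSPA5. HEK293 is an embryonic kidney cell line that also carries neural and adrenal traits. UBE3D was knocked out with CRISPR/Cas9 in 3 libraries (KO), was put back into knockout cells in 3 libraries (addback), and was left intact in 3 libraries (WT). All cells grew in the same medium with fetal bovine serum, and poly(A) RNA was sequenced. The labels mark every sample as pooled. They do not say that a group's libraries are from different cultures, nor whether the knockout is 1 clone, so p-values measure only the spread between these libraries, which may be technical. The floor used the KO level alone, and the chromosome was picked with its difference from WT already known, so the comparisons with KO are given as a description. In addback against WT the floor used neither group, though the addback cells descend from knockout cells.

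UBE3D is an E3 ubiquitin ligase linked to CPSF3, the endonuclease of the cleavage and polyadenylation complex. HEK293 cells are aneuploid, and their stocks and clones differ in chromosome number. For many genes the RNA level follows the number of gene copies. Others hold their level through feedback, or are set by inducible promoters, and such genes are said to escape dosage. Gene copy number was not analysed here, so what sets the chromosome-wide level was not tested.

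Levels are scaled CPM, that is counts divided by an effective library size, and are comparable between libraries for a gene but not between genes of different length. Fold changes are log2 ± standard error (SE) from 1 edgeR fit over 21994 genes, and a gene was called where its adjusted p was under 0.05. The total counts were 23088295 to 37508780 per library. Background reads were estimated from the median count per coding kilobase over tissue-restricted genes, such as those of nose, hair or taste cells. Carried over to all coding genes, this filled an estimated 2.86% to 14.99% of each WT or addback library and 0% of each KO library. Such reads were taken to add to every coding gene at this density, which was not tested. The description is led by 284 members in which they make up at most 10% of the mean level over all 9 libraries (low-background members). Since the estimate is 0 in KO, their share in WT or addback libraries can be above 10%. Of 9 HEK293 markers, CDH2, LIN28B, VIM, KRT8 and KRT18 were at 102 or more scaled CPM in every group, and NEFM and HOXA9 lay between 13.4 and 28.2. PAX2 was at 2.77 in KO, 14.1 in addback and 14.5 in WT, with background estimated at 22.5% of its level. PAX8 was at 0.079, 4.02 and 4.0, with background estimated at 89.1%. UBE3D RNA itself was at 14.5 ± 1.3 scaled CPM in KO, 3130 ± 333 in addback and 22.5 ± 3.67 in WT (SD, n = 3).

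Only 3 low-background members were called higher in addback than in WT, and the promoters of these 3 are printed because their genes stand off the rest of the chromosome. Each sequence holds 300 bases, 5′ to 3′ on the gene's strand, most of them upstream of the RefSeq transcription start (GRCh38.p14). TRIM14, an antiviral adaptor induced by interferon, has its promoter at chr9:98119173-98119472 (minus strand). ANXA1, a calcium-dependent phospholipid-binding protein, has its promoter at chr9:73151615-73151914 (plus strand). IGFBPL1, a secreted relative of the insulin-like growth factor binding proteins, has its promoter at chr9:38424405-38424704 (minus strand). Capitals mark a match to GAAA followed after any 2 bases by GAAA, the core of the interferon-stimulated response element, or to the TATA box TATAAA, both searched on both strands and never overlapping here.
TRIM14: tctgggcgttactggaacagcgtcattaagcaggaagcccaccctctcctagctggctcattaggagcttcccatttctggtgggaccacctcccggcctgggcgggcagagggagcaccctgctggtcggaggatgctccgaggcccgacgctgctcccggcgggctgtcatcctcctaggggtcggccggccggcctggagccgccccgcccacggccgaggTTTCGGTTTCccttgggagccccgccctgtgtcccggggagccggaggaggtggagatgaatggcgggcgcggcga
ANXA1: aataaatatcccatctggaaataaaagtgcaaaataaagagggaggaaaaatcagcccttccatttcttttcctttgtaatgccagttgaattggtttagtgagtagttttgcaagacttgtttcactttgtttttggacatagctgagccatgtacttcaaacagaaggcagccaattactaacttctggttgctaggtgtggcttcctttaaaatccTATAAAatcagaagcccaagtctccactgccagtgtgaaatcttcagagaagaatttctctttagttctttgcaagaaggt
IGFBPL1: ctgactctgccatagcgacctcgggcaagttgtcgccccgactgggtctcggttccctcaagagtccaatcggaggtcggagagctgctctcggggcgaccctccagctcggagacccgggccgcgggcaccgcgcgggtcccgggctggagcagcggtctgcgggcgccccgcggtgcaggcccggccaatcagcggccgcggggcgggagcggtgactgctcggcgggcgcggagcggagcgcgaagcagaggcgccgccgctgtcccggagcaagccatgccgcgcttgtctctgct

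The TRIM14 promoter holds the interferon element core on its reverse strand at bases 225 to 234. The ANXA1 promoter holds TATAAA at bases 220 to 225 and not a single CG pair. The gene models used for the counts start further upstream than RefSeq for TRIM14 (at 98119353, minus strand) and ANXA1 (at 73151731). Both matches lie inside these models. The IGFBPL1 promoter holds neither motif and 41 CG pairs, against a median of 29 over the 463 RefSeq promoters of the 300 members with a matching symbol and of 14 over all 35116 promoters. That core was found in 3.57% of all promoters and in 12 of the 463 (2.59%), and TATAAA in 11.5% and in 21 of the 463 (4.54%). A match is a description of these letters and not of a bound site.

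Chromosome 9 was expressed at a lower level in KO and addback cells than in WT cells, along its whole length and in every library. Members' share of the counts on low-background genes was 2.77%, 2.78% and 2.76% in KO, 2.77%, 2.84% and 2.81% in addback, and 3.66%, 3.72% and 3.6% in the WT libraries. The 6 KO and addback libraries lay together, and no library of theirs reached the lowest WT library. Against the mean of the WT libraries, the median member stood at -0.44, -0.44 and -0.45 (log2) in KO and at -0.43, -0.40 and -0.42 in addback. Genes of the other chromosomes chosen by the same floor had medians of -0.01 to 0.00 in these libraries. Of the 284 members, 273 or 274 lay below their WT mean in each KO library and 274 or 275 in each addback library.

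**Figure D1:**
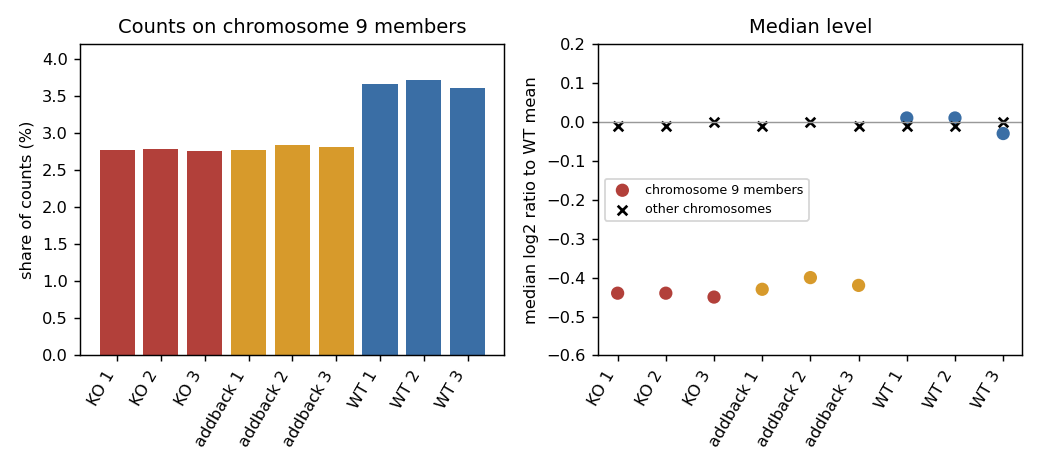
Left, share of the counts on low-background genes that fell on the 284 chromosome 9 members, in percent, for each library (bars start at 0). Right, median log2 ratio of each library to the mean of the WT libraries, for the members (circles, coloured by group as on the left) and for genes of the other chromosomes (crosses). The KO and addback libraries sit between 2.76% and 2.84%, below the WT libraries at 3.6% to 3.72%.

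In KO against WT, 336 of the 366 members were called lower and 4 higher, where 52.5% of all tested genes were called lower and 9.43% higher. Among the low-background members 264 of 284 were lower and 2 higher, beside 23.4% lower and 24.3% higher among 6934 low-background genes of other chromosomes at the same floor. The groups did not overlap for 269 of them (94.7%), against 56.5% of those 6934 genes and 70.6% of all tested genes. The members' median fold was -0.44, a ratio of 0.74, with quartiles of -0.58 and -0.30. In addback against WT, 272 of the 366 were called lower and 5 higher, where 4.88% of all tested genes were called lower and 4.37% higher. Of the low-background members 236 were lower and 3 higher, with a median of -0.42 (a ratio of 0.75), and the share on other chromosomes was 10.1% lower and 10.3% higher. The groups did not overlap for 261 of the 284 (91.9%), against 42.2% on other chromosomes. Both comparisons use the same WT libraries.

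Between addback and KO cells the chromosome's median differed little. In addback against KO, 45 members were called lower and 112 higher (7.64% and 49.2% of all tested genes), and the low-background members had 40 lower, 67 higher and a median of 0.02 (20.4% lower and 17.3% higher on other chromosomes). The 82 members with more background had a median of 0.30, and of 0.06 with the estimated background subtracted.

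The counts moved with the scaling. TMM factors from all tested genes shift the median of other chromosomes' genes to 0.33 in KO against WT and to -0.31 in addback against KO, and leave 120 members lower and 14 higher, 157 lower and 24 higher, and 118 lower in addback against WT. The member median was then -0.11 in KO against WT, 0.44 below that of the other chromosomes. Chromosome 9 stayed the lowest of 23 in both comparisons with WT under these factors and with the background subtracted 1 or 2 times.

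Among 23 chromosomes, 9 had the lowest median in both comparisons with WT. Chromosome 7 came next, with -0.21 in KO against WT and -0.22 in addback against WT, and chromosome 14 stood highest at 0.10 and 0.11. The spread between members was not wider than elsewhere: the interquartile range of the folds was 0.28 in KO against WT (0.23 to 0.35 on other chromosomes) and 0.20 in addback against WT (0.15 to 0.22).

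**Figure D2:**
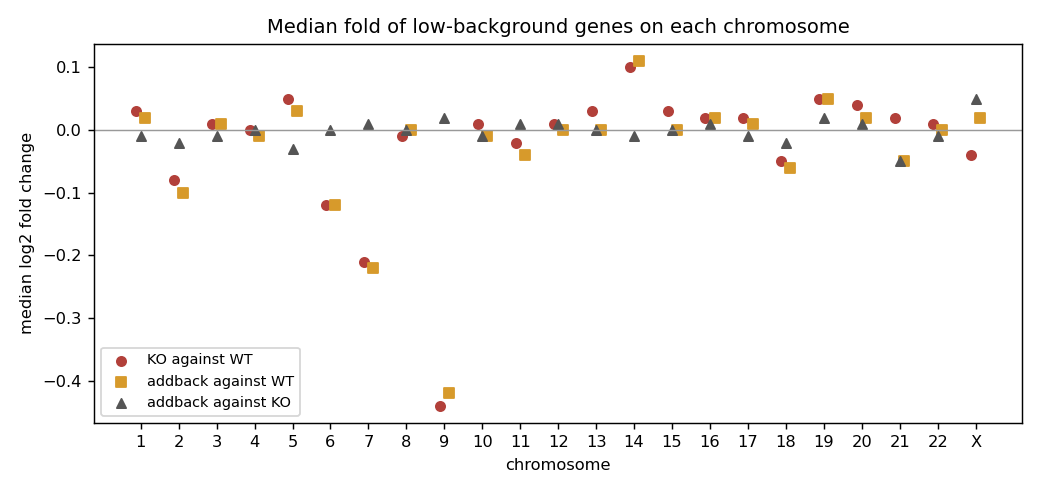
Median log2 fold change of the low-background genes at or above the floor on each chromosome, for KO against WT (circles), addback against WT (squares) and addback against KO (triangles). Chromosome 9 lies at -0.44 and -0.42 in the comparisons with WT and at 0.02 in addback against KO.

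The lower level ran over both arms. The 67 low-background members of the short arm, from CBWD1 at 0.12 Mb to FAM95C at 38.54 Mb (hg38), had a median of -0.47 in KO against WT and -0.41 in addback against WT. The 217 of the long arm, from FAM122A at 68.78 Mb to EHMT1 at 137.62 Mb, had -0.43 in both. In windows of 10 Mb the medians ran from -0.71 (6 members, from 10 to 20 Mb, with NFIB, SNAPC3 and PSIP1) to -0.32 in KO against WT, and from -0.59 to -0.32 in addback against WT.

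The end of the long arm was less low. Its 67 members from 130 Mb on had a median of -0.32 in both comparisons with WT, and the 150 long-arm members before 130 Mb had -0.47 in both. From 130 Mb on, 59 of 67 were called lower in KO against WT and 47 of 67 in addback against WT, and none was called higher. With the cut moved to 120 Mb, 14 of the 18 low-background members not called in KO against WT lay among the 131 from there on and 4 among the 153 before. The 64 members from 120 to 130 Mb had a median of -0.46 in KO against WT, with 58 called lower, so this count takes in members outside the less low end. Both cuts were read off the data and the differences were not tested. In the 2 Mb from 132 Mb, which hold TTF1, RALGDS and the SURF genes, 13 members had medians of -0.22 and -0.23.

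**Figure D3:**
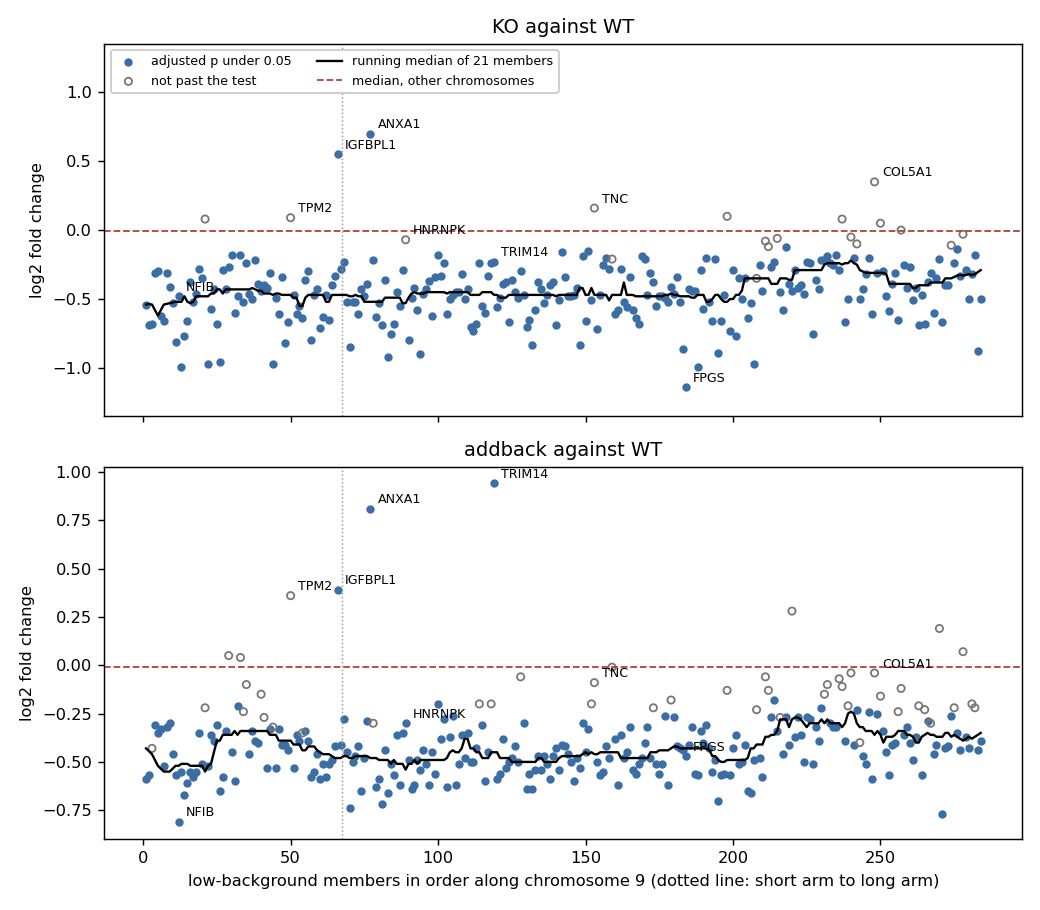
Log2 fold change of each low-background member, in order along the chromosome, for KO against WT (top) and addback against WT (bottom). Filled points are past the edgeR test, open points are not, the black line is a running median over 21 members, and the dashed line is the median of other chromosomes. ANXA1 and IGFBPL1 lie above the rest in both panels and TRIM14 in the lower panel.

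ANXA1 (chr9:73151731-73170394, plus strand) ran against its chromosome. Its scaled CPM was 130.1, 150.7 and 126.8 in KO, 147.1, 141.3 and 148.5 in addback and 84.3, 81.5 and 84.3 in WT. All 6 KO and addback libraries exceeded all WT libraries. The log2 fold was 0.81 ± 0.06 in addback against WT (edgeR adjusted p = 9.2e-05) and 0.70 ± 0.06 in KO against WT. Its nearest low-background neighbours, ZFAND5 and C9orf40, lie 786 kb and 1780 kb away and had -0.29 and -0.30 in addback against WT, the second not past the test (edgeR adjusted p = 0.0573).

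TRIM14 (chr9:98084353-98119353, minus strand) was high in the addback cells alone. It stood at 32.1, 35.1 and 34.1 in KO, 77.1, 66.6 and 83.9 in addback and 39.6, 39.9 and 38.9 in WT. The addback libraries exceeded all others, by 1.17 ± 0.08 over KO and 0.94 ± 0.08 over WT (edgeR adjusted p = 8.7e-05 and 0.00015). KO lay below WT by -0.23 ± 0.08 (adjusted p = 0.0357), a value that turned to 0.11 with TMM factors from all genes and 0.03 with DESeq2 factors, and that did not pass without any 1 of the KO or WT libraries (edgeR adjusted p = 0.0529 to 0.114). NANS, the sialic acid synthase gene 1.27 kb away, had -0.20 in addback against WT (edgeR adjusted p = 0.0797, or 0.0357 with the replicate block), and ANKS6 on the other side had -0.59.

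IGFBPL1 (chr9:38406528-38424447, minus strand) was the weakest of the 3. Its values were 19.4, 22.2 and 19.6 in KO, 16.9, 18.5 and 19.2 in addback and 13.6, 14.2 and 13.9 in WT, with no overlap between WT and either other group. It reached the floor in KO (20.98 unscaled CPM) but would not have in WT (13.7), so a higher level in KO than in WT follows in part from how members were chosen. The fold was 0.55 ± 0.10 in KO against WT and 0.39 ± 0.10 in addback against WT (edgeR adjusted p = 0.0417), and the latter was not past the test without any 1 of the 9 libraries (edgeR adjusted p = 0.0624 to 0.155). ALDH1B1, 7.86 kb away, had -0.42 in addback against WT.

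Outside the low-background set, KLF4 and TDRD7 were the other members called higher in addback than in WT, and the noncoding SNHG7 and SLC25A25-AS1 the other members called higher in KO than in WT. These 4 fall outside the rule for named genes and are given because the counts are small. TDRD7, a Tudor-domain protein of RNA granules, stood at 32.9 ± 1.04 in KO, 70.1 ± 8.56 in addback and 51.2 ± 6.73 in WT, with an estimated background of 10.8%, 1.09 ± 0.11 in addback against KO and 0.46 ± 0.11 against WT (edgeR adjusted p = 0.00076 and 0.0285). KLF4, a zinc finger transcription factor of stem cells and epithelia with an estimated background of 12.2%, had 0.61 ± 0.14 in addback against WT (edgeR adjusted p = 0.0278). Without KO replicate 1 both missed the test in addback against WT (edgeR adjusted p = 0.0561 and 0.0574), and other single libraries had the same effect. SLC25A25-AS1 had 0.43 ± 0.12 and SNHG7 0.31 ± 0.08 in KO against WT, and in addback against WT -0.39 and 0.02, neither past the test. SLC25A25-AS1, too, met the floor in KO only (16.8 and 11.9 unscaled CPM in KO and WT), and it missed the test in KO against WT without any 1 of the KO libraries (edgeR adjusted p = 0.0588 to 0.0612). Neither has a coding length, so their background could not be estimated, and whether the counts use strand is not given in the sources used here, so reads of SLC25A25-AS1 cannot be told from those of its antisense partner.

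**Figure D4:**
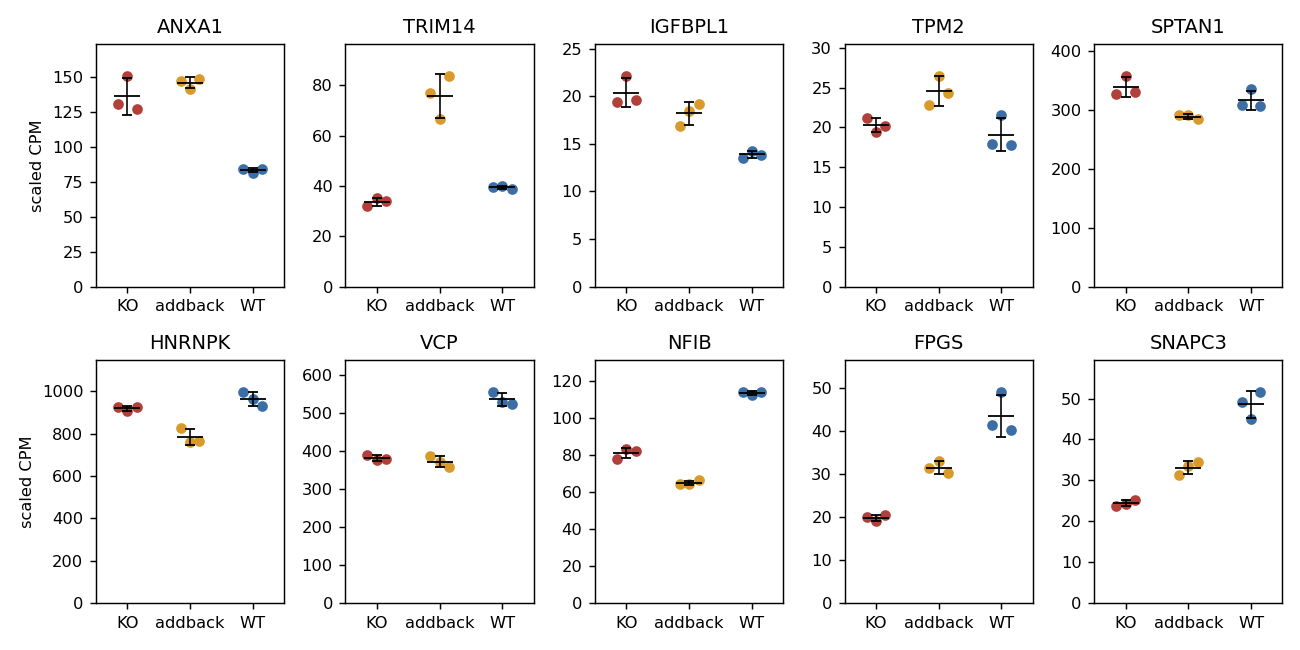
Scaled CPM of 10 members in each library (points), with the mean and SD of each group of 3 libraries (black), each axis starting at 0. ANXA1 and IGFBPL1 are lowest in WT, TRIM14 is highest in addback, and VCP, NFIB, FPGS and SNAPC3 are highest in WT.

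A further set of members was not past the test in either comparison with WT, when fitted without the replicate block. COL5A1, TNC and TPM2 code for matrix or contractile filament proteins, and SPTAN1 for the spectrin that lines the cell membrane. SPTAN1 was at 327.1, 357.9 and 329.7 in KO, 290.6, 290.9 and 284.2 in addback and 307.6, 334.6 and 306.3 in WT. The KO and WT libraries overlapped, and the fold was 0.10 ± 0.05 in KO against WT (edgeR adjusted p = 0.0967, or 0.0297 without WT replicate 2) and -0.13 ± 0.05 in addback against WT (edgeR adjusted p = 0.139, or 0.0319 with the replicate block). Its neighbours GLE1, 10.3 kb away, and WDR34, whose gene model overlaps its end, had -0.47 and -0.73 in KO against WT.

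TNC, which codes for tenascin-C, was at 247.0, 285.4 and 239.3 in KO, 216.0, 210.8 and 220.9 in addback and 217.4, 251.7 and 221.8 in WT. KO and WT overlapped, as did addback and WT, with folds of 0.16 ± 0.07 and -0.09 ± 0.07 (edgeR adjusted p = 0.0916 and 0.728). Without WT replicate 2 the first passed the test (edgeR adjusted p = 0.0286). COL5A1, a fibrillar collagen chain, varied between libraries of a group, from 119.6 to 168.9 in KO and from 88.4 to 137.5 in WT, and its 0.35 ± 0.18 in KO against WT (edgeR adjusted p = 0.122) passed only without WT replicate 2 (0.0148). TPM2, a tropomyosin, had 0.09 ± 0.10 and 0.36 ± 0.10 in the comparisons with WT (edgeR adjusted p = 0.486 and 0.0671), and the second passed without WT replicate 2 (0.0241).

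CDKN2B and SURF6 completed the 8 highest folds in KO against WT. CDKN2B (chr9:22002903-22009313, minus strand), a cyclin-dependent kinase inhibitor, was at 70.8, 83.1 and 68.9 in KO, 63.9, 59.6 and 57.3 in addback and 72.7, 73.6 and 63.8 in WT. KO and WT overlapped (0.08 ± 0.08), and addback against WT gave -0.22 ± 0.08 (edgeR adjusted p = 0.186). The adjacent inhibitor gene CDKN2A, 8.41 kb away, was called lower in both, by -0.35 ± 0.05 and -0.51 ± 0.05. SURF6, a nucleolar protein, had 0.08 ± 0.08 and -0.11 ± 0.08 (edgeR adjusted p = 0.389 and 0.637), whereas MED22, 4.69 kb away, was called lower in both comparisons with WT, by -0.67 and -0.39.

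FPGS, which adds glutamate tails to folate, had the lowest fold of the low-background members in KO against WT. It was at 20.03, 18.96 and 20.38 in KO, 31.3, 33.1 and 30.2 in addback and 41.3, 49.2 and 40.2 in WT. The 3 groups did not overlap, and the fold was -1.14 ± 0.09 in KO against WT and -0.47 ± 0.08 in addback against WT (edgeR adjusted p = 0.00909). SNAPC3, a subunit of the complex that starts small nuclear RNA transcription, was at 23.7, 24.3 and 25.3 in KO, 31.3, 33.6 and 34.5 in addback and 49.2, 45.1 and 51.7 in WT, again in 3 separate groups.

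The other 6 of the 8 lowest were PTGES2 (-0.99), ELAVL2 (-0.97), GALT (-0.97), SH3GLB2 (-0.97), ACO1 (-0.96) and CEP78 (-0.92). PTGES2 makes prostaglandin E2, ELAVL2 is a neuronal RNA-binding protein, GALT handles galactose, SH3GLB2 shapes membranes, ACO1 is the cytosolic aconitase and iron regulator, and CEP78 is a centrosomal protein. All 8 lay between KO and WT in the addback cells, at -0.66 to -0.32 against WT, and GALT did not pass there (edgeR adjusted p = 0.104). They were picked for a low level in KO, so an addback level above KO follows in part from that choice. The median of all low-background members in addback against KO was 0.02. In these 8, background made up 4.14% to 9.37% of the level, and with 2 times the background subtracted their folds in addback against KO ran from 0.03 to 0.51 in place of 0.25 to 0.67. The part of background in these folds was not tested further.

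NFIB (chr9:14081843-14398983, minus strand), a nuclear factor I transcription factor, had the lowest fold of the low-background members in addback against WT. It was at 78.2, 83.1 and 82.4 in KO, 64.1, 64.5 and 66.4 in addback and 114.1, 112.5 and 114.3 in WT. The groups did not overlap, with -0.81 ± 0.04 in addback against WT (edgeR adjusted p = 4.4e-06) and -0.32 ± 0.04 in addback against KO (edgeR adjusted p = 0.00109). SAPCD2, GCNT1, CERCAM and PSIP1 were also among the lowest low-background members called in addback against WT, at -0.77 to -0.67. GCNT1 is a mucin-type glycan branching enzyme and PSIP1 a chromatin-binding coactivator. PSIP1 was at 157.1, 147.2 and 159.9 in KO, 163.0, 162.3 and 172.0 in addback and 267.5, 251.5 and 271.8 in WT, so KO and addback lay side by side far below WT.

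By function, members of all 11 lists were called lower in both comparisons with WT. With TMM factors from all genes, the list medians in KO against WT rose to between -0.27 and -0.05, and that of the interferon response list turned to 0.04, while in addback against WT they lay between -0.44 and -0.26. The lists hold only genes of this chromosome and were drawn up with its lower level known, so their direction is no independent evidence. Their counts stand beside 91.8% of all members called lower in KO against WT and 74.3% in addback against WT. They depended on the scaling: with TMM factors from all genes, at most 9 members of any list were called lower in either comparison. Among regulators of chromatin and transcription 26 of 27 members were called lower in KO against WT (median -0.47) and 22 in addback against WT (-0.39), or 7 and 8 with TMM factors from all genes. SET, a histone chaperone, was at 475 ± 3.26 in KO, 429 ± 11.9 in addback and 579 ± 23.7 in WT, a fold of -0.43 ± 0.04 in addback against WT (edgeR adjusted p = 0.00014). HNRNPK, an abundant RNA-binding protein and the exception in that list in KO against WT, was at 919.9 ± 11.9, 783.8 ± 36.9 and 964.3 ± 32.2. Its KO and WT libraries did not overlap, yet the fold was -0.07 ± 0.04 (edgeR adjusted p = 0.171), which became -0.14 (adjusted p = 0.00109) with the background subtracted, and addback against WT gave -0.30 ± 0.04 (adjusted p = 0.00206).

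RNA processing and export had 16 of 18 members lower in KO against WT and 15 in addback against WT, or 2 (with 1 higher) and 4 with TMM factors from all genes. The nuclear pore gene NUP188 had -0.66 ± 0.05 in addback against WT and its fellow NUP214 -0.27 ± 0.05. In protein folding, ubiquitin and proteasome genes 22 of 22 were lower in KO against WT and 20 in addback against WT (medians -0.46 and -0.44), or 2 and 6 with TMM factors from all genes. VCP, the ATPase that extracts ubiquitinated proteins, was at 389.4, 374.4 and 378.5 in KO, 386.4, 369.0 and 357.4 in addback and 554.5, 527.2 and 523.1 in WT, a fold of -0.53 ± 0.04 in addback against WT. DNAJA1 and USP20 were the 2 not called in addback against WT. DNAJA1, a cochaperone of HSP70, was at 252 ± 12 beside 243 ± 9.28 in WT and 202 ± 3.54 in KO, with 0.05 ± 0.04 in addback against WT (edgeR adjusted p = 0.744) and 0.32 ± 0.04 in addback against KO (edgeR adjusted p = 0.00186). USP20, a deubiquitinase named here after its values were seen, had -0.27 ± 0.11 in addback against WT (edgeR adjusted p = 0.213). TOR1A and BAG1 were called lower in addback against WT by -0.18 and -0.21. Leaving out 1 library at a time, TOR1A passed only without addback replicate 1 or WT replicate 3 and BAG1 only without WT replicate 2, with edgeR adjusted p of up to 0.184 and 0.16 otherwise.

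Among mitochondrial genes 14 of 15 were called lower in KO against WT and 12 in addback against WT, or 1 (with 1 higher) and 4 with TMM factors from all genes. In addback against WT the inner membrane scaffold STOML2 had -0.41 ± 0.05, the nucleotide kinase AK3 -0.35 ± 0.04 and PMPCA, a subunit of the presequence protease, -0.36 ± 0.06. Cytoskeleton and membrane traffic genes had 18 of 21 and 15 of 21. TLN1, which links integrins to actin, was at 306 ± 6.16 in KO, 293 ± 2.68 in addback and 423 ± 17.8 in WT, while the tubulin TUBB4B had -0.35 ± 0.05 in addback against WT. Its -0.14 ± 0.05 in KO against WT (edgeR adjusted p = 0.0361) turned to 0.19 with TMM factors from all genes and 0.11 with DESeq2 factors, and was not past the test without KO replicate 1 (edgeR adjusted p = 0.0967), KO replicate 3 (0.124), addback replicate 2 (0.0521), WT replicate 1 (0.157) or WT replicate 2 (0.0900).

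All 10 lipid members were called lower in KO against WT and 9 in addback against WT, the glucosylceramidase GBA2 with -0.39 ± 0.06 there. SPTLC1, which starts sphingolipid synthesis, moved less, by -0.20 ± 0.05 (edgeR adjusted p = 0.0284), a call kept only without KO replicate 2 or addback replicate 2 when 1 library was left out (edgeR adjusted p of up to 0.0949 otherwise). Of the sugar, amino acid and nucleotide genes 19 of 19 were lower in KO against WT and 15 in addback against WT. TXN, the thioredoxin gene, was at 105 ± 2.82 in KO, 98.8 ± 5.87 in addback and 137 ± 6.88 in WT, and POMT1, which starts protein mannosylation, had -0.51 ± 0.06 in addback against WT.

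Growth signalling genes were lower in 16 of 16 cases in KO against WT and in 13 in addback against WT. ABL1, a tyrosine kinase, had -0.36 ± 0.04 in addback against WT, RAPGEF1, an exchange factor for RAP1, -0.39 ± 0.03, and PPP2R4, an activator of phosphatase 2A, -0.58 ± 0.06. Developmental factors had 10 of 13 lower in KO against WT, and 8 lower with KLF4 higher in addback against WT. The corepressor genes TLE1 and TLE4 had -0.57 ± 0.04 and -0.51 ± 0.07 in addback against WT, and TGFBR1, a receptor of transforming growth factor beta, -0.56 ± 0.03. Cell cycle and repair genes had 17 of 18 and 15 of 18 lower. RAD23B, a repair and shuttle factor, had -0.54 ± 0.03 in addback against WT. The 4 interferon response members were all called lower in KO against WT and none was with TMM factors from all genes, where TRIM14, TRAF2 and TOR1B lay at 0.11, 0.02 and 0.07. In addback against WT 2 were lower and TRIM14 higher. TRAF2 and TOR1B, the others that are low in background, had -0.30 ± 0.08 and -0.27 ± 0.07 there (edgeR adjusted p = 0.0534 and 0.0446). The first passed with the replicate block (0.0221) and without WT replicate 3 (0.00549) and the second passed only without KO replicate 2 or WT replicate 3 when 1 library was left out (edgeR adjusted p of up to 0.141 otherwise).

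Members of the highest levels were the least low in KO against WT. With the low-background members split into 3 classes of about equal size by mean level, the medians in KO against WT were -0.48, -0.47 and -0.35 from the lowest to the highest, and -0.45, -0.46 and -0.40 with the background subtracted. Other chromosomes' genes over the same ranges rose with level as well, at -0.08, -0.02 and 0.04, so the trend is not particular to the members. In addback against WT the member medians were -0.40, -0.44 and -0.44.

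Around the floor, SLC35D2, DFNB31 and MOB3B fell just below it with 14.7, 14.8 and 14.9 unscaled CPM in KO, and GLIS3, IFT74 and LAMC3 just above it with 15.01, 15.1 and 15.2. A floor set in WT would have added 68 genes, of which 12 were low in background, and dropped IGFBPL1 and SLC25A25-AS1.

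Regions downstream of members were also mostly lower in KO than in WT. The authors' deposited table of readthrough regions, stretches of transcription downstream of a gene's end, holds 52 regions whose host is a member. In the authors' deposited table for KO against WT, 33 of these were lower and 5 higher at an adjusted p under 0.05 (25.0% and 24.8% of all 2541 regions), with a median log2 fold of -0.51. The 52 take in the regions after POLR1E, TRUB2, ABL1, PPP1R26, INPP5E and PMPCA, which had next to no signal. In the authors' deposited table their base means were 0.0699 to 0.591 and their SEs 2.84 to 4.08, and none was past the authors' test. The 2456 regions of other chromosomes in the authors' deposited table had a median of 0.00. In the authors' deposited table for addback against KO, 9 of 48 regions were lower and 5 higher (15.5% and 18.6% of all), with a median of -0.09. The regions after PPP1R26 and INPP5E had base means of 0.422 and 0.49 in that deposited table. The folds of the second table appear shrunken, since only 6.14% of its p-values follow from fold over SE, against 100% in the first, so their sizes are not set side by side.

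The regions differed among themselves in KO against WT. In the authors' deposited table, the region after RALGPS1 (chr9:127223167-127258766) had -1.55 ± 0.19, that after KIAA1958 (chr9:112665312-112673311) -1.03 ± 0.16 and that after STRBP (chr9:123115477-123121629) -1.01 ± 0.10. The host genes had -1.12, -0.85 and -0.64. By contrast, the authors' deposited table has 0.74 ± 0.16 after NSMF (chr9:137441449-137447571), 0.57 ± 0.10 after C9orf69 (chr9:136095285-136114581), 0.48 ± 0.10 after SURF6 (chr9:133322508-133330707), 0.46 ± 0.15 after TMEM261 (chr9:7764492-7796491) and 0.23 ± 0.10 after TLN1 (chr9:35690056-35697337), where the region fills the gap between TLN1 and TPM2. Of these hosts NSMF (-0.29), C9orf69 (-0.39), TMEM261 (-0.53) and TLN1 (-0.47) were lower in the gene fit, and SURF6 was at 0.08. No values per library were used for regions, and regions and hosts fall outside the rule for named genes, having been chosen by their values.

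**Figure D5:**
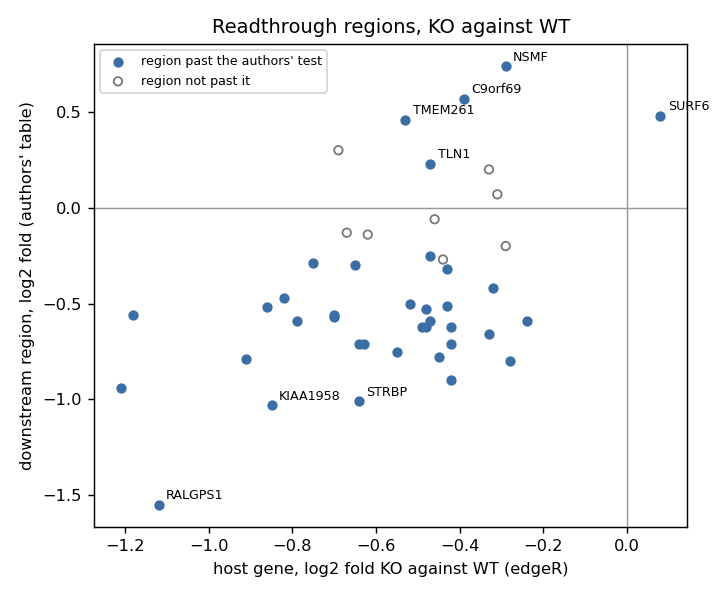
Log2 fold of the downstream region in the authors' deposited table against the fold of its host gene in the edgeR fit, KO against WT, for the 45 regions with 1 member host and an SE under 1. Filled points are past the authors' test and open points are not. Most regions lie below 0 with their hosts, and NSMF, C9orf69, SURF6, TMEM261 and TLN1 lie above 0.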

How the data were processed

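Poly(A) RNA of 9 HEK293 libraries (3 KO, 3 addback, 3 WT, by title) was measured. Per the submitters' processing notes, cutadapt 1.8.1, STAR 2.5.2b and DESeq2 were used on hg38, while the counting program and its annotation were not given. The authors' deposited table gives raw counts per gene, with gene length in bases. The column mark KO.U was taken as addback. The authors' deposited region tables give base means (a signal), log2 folds and SEs, and p-values, with starts raised here by 1 base. The 9 libraries' columns were all used.

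The members, gene lists, scaling and tests were chosen with earlier results of these data known. Background was estimated as a library's median number of counts per coding kilobase (GENCODE v29) over 560 tissue-restricted genes, and a gene was low in background where this came to at most 10% of its mean CPM and coding sequence was at least 10% of its exons. Counts were fitted with edgeR 4.0.16 (R 4.3.3): filterByExpr left 21994 genes, all 366 members included, TMM factors came from the 7737 low-background genes, and 1 robust quasi-likelihood fit held genotype alone. Adjusted p-values are Benjamini-Hochberg over all 21994 genes. On simulated counts for KO against WT over 21994 genes the fit recovered 96% to 100% of changed genes. The simulation gave every gene the same spread, changed only genes of high count and added no background. It is simpler than these data, so its rate does not carry over to the calls reported here. Medians over members carry no test. Alternatives were other scaling factors, DESeq2 1.42.0, filters, background subtraction, floors, a replicate block and leaving out each library. Over all tested genes, same-numbered libraries were correlated in their residuals in addback against WT (0.89, 0.60 and 0.74). They were not in the comparisons with KO (-0.05 to 0.02). Over low-background genes the correlations were 0.57, 0.29 and 0.63 in addback against WT and 0.01 to 0.18 in the comparisons with KO. Estimated background was lowest in replicate 1 of both groups, at 22.6 (addback) and 25.48 (WT) counts per coding kilobase, against 84.66 to 106.59 in their other libraries. Numbers may thus pair those groups, and the part of shared background in this was not tested. Replicates differed by more than sampling noise (chi-square per degree of freedom 1.99 to 44.5). Named genes were low-background members: the 8 lowest and 8 highest folds in KO against WT, the 6 lowest and 6 highest called in addback against WT, the 3 most expressed of each of 11 lists, and the 3 genes on each side of the floor. Some genes that this rule picks are not reported here. Symbols were joined to RefSeq promoters. How far counting depth adds to the error of single members near the floor was not tested.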

Additional observations from a re-analysis of the deposited data

How the results depend on the processing

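The member median beside other chromosomes stayed between -0.46 and -0.43 in KO against WT when each library was left out, between 0.01 and 0.02 in addback against KO, and between -0.44 and -0.40 in addback against WT. It was -0.45 and -0.48 in addback against WT with the background subtracted 1 and 2 times, -0.01 and -0.03 in addback against KO, and 0.00 there with a floor of 30. Counts of called members depended on the scaling. TMM factors from all genes gave 120 lower and 14 higher in KO against WT, 157 and 24 in addback against KO, and 118 lower in addback against WT. DESeq2 size factors gave 182 and 13 in KO against WT and 172 and 26 in addback against KO, and DESeq2's own test 183 and 14, and 167 and 25. Upper quartile factors gave 9 higher in KO against WT, and 106 lower and 54 higher in addback against KO. The higher calls in KO against WT numbered 2 with low-background genes only, with 2 times the background subtracted, with the floor on WT and with a floor of 30. In addback against KO the higher calls were 64 with low-background genes only, 41 with the background subtracted, 24 (and 29 lower) with 2 times the background subtracted, and 61 with a floor of 30. Those in addback against WT were 3 with 2 times the background subtracted and with a floor of 30.

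With the replicate block, KO against WT had 7 higher, and addback against KO had 55 lower and 120 higher. Addback against WT, where the numbers may pair the libraries, had 290 lower and 5 higher, against 272 and 5 without the block. The block changed no other count of calls by over 1.5 times. In addback against WT it brought SPTAN1 and TRAF2 past the test and changed no other call of the 49 named genes. NANS was among the members outside these 49 that it also brought past the test there. Leaving out each library gave 317 to 336 lower and 3 to 8 higher in KO against WT (8 without WT replicate 2), 34 to 47 lower and 66 to 121 higher in addback against KO (66 without KO replicate 2, 72 without addback replicate 3), and 227 to 258 lower and 2 to 6 higher in addback against WT, where every library but WT replicate 2 brought the higher calls to 3 or 2 when left out.

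Of 1764 values for 49 named genes, 1555 kept their side of the threshold, 146 no longer passed and 40 newly passed. The other 23 changed sign with the value past the test before or after the change. Changes of sign between values that both missed the test are counted among the 1555. HNRNPK in KO against WT is such a case, at 0.26 with TMM factors from all genes (edgeR adjusted p = 0.124). All 23 were in KO against WT. With TMM factors from all genes SPTLC1 became 0.16, TOR1A 0.10, TRIM14 0.11, TRAF2 0.02, TOR1B 0.07, SET 0.05, NUP214 0.11, DNAJA1 0.07, PMPCA 0.09, AK3 0.03 and TUBB4B 0.19. With DESeq2 size factors, and with DESeq2's own test, SPTLC1 became 0.07, TOR1A 0.02, TRIM14 0.03, NUP214 0.03, PMPCA 0.01 and TUBB4B 0.11. These factors differ by construction in which genes they are computed from.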

Other observations

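The 68 chromosome 9 genes that reached the floor in WT and not in KO had a median background of 19.1% of their level. This choice fixes a low KO level, so these folds are a description and the first 2 follow in part from it. Their median fold was -1.02 for KO beside WT, 0.70 for addback beside KO and -0.35 for addback beside WT, where the members had -0.41.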
